A study of Aspergillus luchuensis with 6 samples.

Results

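The start sites described here are places where capped RNA 5′ ends were at least 4 times as frequent in a laeA disruptant as in a control strain. The strains are of Aspergillus luchuensis mut. kawachii, a mould used to make koji for shochu. The method was CAGE, or cap analysis of gene expression. It sequences short tags from capped RNA 5′ ends. A place where tags map is read as a start of transcription, and the number of tags gives the level of RNA with that end. This level need not equal how often transcription began. Tags at neighbouring positions of a strand were joined into tag clusters, and a cluster was taken when its disruptant mean was at least 2 CPM (tags per 1000000 tags used of the library), its control mean was at most 0.25 of that, and every disruptant library exceeded every control library. The rule took 285 of 22841 tag clusters (1.25%), on 60 of the 117 scaffolds that held clusters. It used the levels of all 6 libraries, so the levels and ratios of these members are given as a description without a test.

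There were 3 libraries of the disruptant, whose genotype is given as ΔlaeA and whose strain label is sirD, and 3 of the control, whose strain label is ctrl345. What sirD stands for, whether the strains share a parent and how many transformants each represents are not given in the sources used here. Both strains were grown in the same way: 36 h of shaking at 30 °C in M medium, then 12 h in CAP medium, before RNA was taken from the mycelia. The labels name these media without giving their composition. The labels do not say whether replicates were separate cultures, so the spread between libraries may be partly technical.

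LaeA is a nuclear protein of filamentous fungi with a methyltransferase-like fold, named for the loss of aflR expression when it is mutated in Aspergillus nidulans. It is best known for keeping clusters of secondary metabolism genes active, and such genes lie side by side along the chromosome, often toward its ends. In several Aspergillus species other genes are more active without it. A start site that is more used in its absence may stand before a gene, inside one, or opposite one, and CAGE alone does not tell these apart. Positions here are on GenBank scaffolds and carry no gene names, so each site is named by its scaffold, strand and position, counted from 1. For the same reason no value is given for laeA.

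The disruptant libraries held 17.3, 14.8 and 15.3 M tags and the control libraries 19.2, 19.3 and 18.0 M. Of these, 14.9, 11.5 and 11.2 M disruptant tags and 15.2, 16.1 and 12.9 M control tags lay on the scaffolds used, which leave out the tag-rich scaffold DF126582.1. That scaffold took 7.49% to 17.3% of the tags of disruptant libraries and 9.42% to 17.2% of those of control libraries. A count of 3 tags corresponds to 0.201 to 0.268 CPM in disruptant libraries and to 0.186 to 0.233 CPM in control libraries, and this floor covers counting error only.

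Most members were weak, and few were silent in the control. Their disruptant means had a median of 5.93 CPM (quartiles 3.20 and 17.8, highest 1779 CPM), against control means with a median of 0.881 CPM (quartiles 0.503 and 2.53, highest 228 CPM). By disruptant mean, 130 members lay between 2 and 5 CPM, 94 between 5 and 20 CPM, 33 between 20 and 100 CPM and 28 at 100 CPM or more. The ratio of disruptant to control mean had a median of 5.70, with control means under 3 tags over the group set to that floor. It was at least 10 in 72 members and at least 20 in 39. Only 2 members had no tag in any control library, and 7 had at most 3 tags over the 3 control libraries together. The description "switched on" therefore covers few of them: 136 had a control mean of at least 1 CPM and 30 one of at least 10 CPM.

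Together the members held 1.04%, 1.74% and 1.23% of the tags of disruptants 1, 2 and 3, against 0.153%, 0.159% and 0.199% of those of controls 1, 2 and 3. The 12 strongest made up 55.3% of the members' summed disruptant level, and the weaker 142 only 3.62%. Among all clusters ranked by level, 24 members were in the top 1000 in the disruptant, and 3 of these sites were in the top 1000 in the control.

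**Figure D1:**
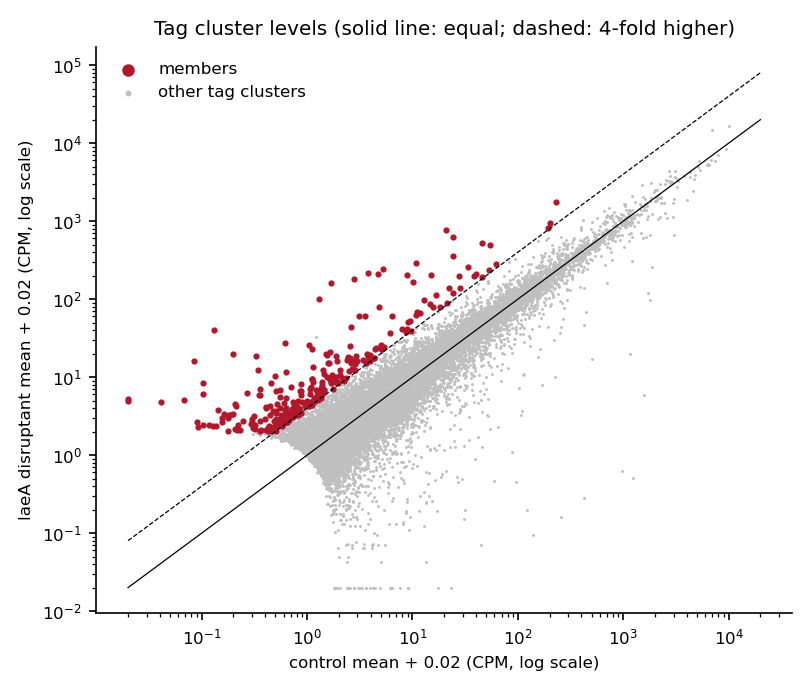
Mean level of each tag cluster in the 3 laeA disruptant libraries (vertical axis) against that in the 3 control libraries (horizontal axis), both in CPM on log scales with 0.02 added; red points are the 285 members and grey points the other clusters. The red points fill the space above the 4-fold line from 2 CPM to 1779 CPM in the disruptant, and many lie close to that line.

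The limit of 0.25 cut through a continuous range. The member closest to it, on the plus strand of DF126470.1 at 517523 to 517579, averaged 4.42 ± 0.23 CPM in disruptant and 1.10 ± 0.42 CPM in control libraries (SD, n = 3 each), a ratio of 4.01. The next members inside had ratios of 4.02 (DF126464.1, plus strand, 590594 to 590629) and 4.03 (DF126468.1, plus strand, 136061 to 136110). The 3 clusters just outside were on DF126484.1 (minus strand, 7290 to 7305), DF126451.1 (plus strand, 1137148 to 1137237) and DF126488.1 (minus strand, 117892 to 118085), each with a ratio of 3.99 or 3.98. Between ratios of 4 and 5 there were 104 members. A further 261 clusters with separate libraries and a disruptant mean of at least 2 CPM had ratios of 3 to 4, and 5 clusters met both limits with libraries that overlapped.

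In the edgeR quasi-likelihood fit over all clusters, 843 of 22777 tested (3.70%) were called higher in the disruptant at a Benjamini-Hochberg adjusted p under 0.05, and 3.93% were called lower. Without disruptant 2 or 3, or control 1 or 2, the number called higher was 396, 320, 344 and 393, and the number called lower, 895 with all libraries, was 538, 399, 515 and 533. Without control 3, 958 were called higher and 1563 lower. Of the 285 members, 283 passed the filter on low counts and 275 were called higher. DESeq2 called 5.11% of the clusters it tested higher, and 284 of the 284 members it tested. The same contrast chose the members, so nothing is read from this count. Every member had disruptant libraries above all control libraries by the rule, as did 17.2% of all clusters, and 11.6% had them below. The 8 members tested and not called had disruptant means of 2.23 to 5.42 CPM.

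Each library was left out in turn when the limits on mean, ratio and separation were applied, although the libraries it is set against were used. The clusters themselves were formed and kept by levels pooled over all 6 libraries, so the left-out library was not wholly unused. Weak clusters low in it may have been lost beforehand. When disruptant 2 was left out, these limits took 222 clusters by the other 5 libraries. Disruptant 2 was at least 4 times the control mean in 192 of these (86.5%), against 2.25% of all clusters. It was above every control library in 220 of the 222, against 39.6% of all clusters. When disruptant 1 was left out, 344 clusters were taken, and disruptant 1 passed the 4-fold limit in 188 (54.7%, against 1.09% of all clusters) and exceeded every control in 341. With disruptant 3 left out the shares were 66.8% for the limit, against 1.20% of all clusters, and 99.4% for exceeding every control. Control libraries left out in turn were below every disruptant library in 97.8% to 99.1% of the clusters taken, against 29.9% to 38.9% of all clusters. The left-out library thus lay on the same side in nearly every cluster taken, and fewer clusters passed the 4-fold limit in it. Since the clusters were chosen with the other group's libraries at their extreme, part of this separation is given by the choice.

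The strongest member lay on the minus strand of DF126451.1 at 432049 to 432261. It had 1266, 2338 and 1733 CPM in disruptants 1, 2 and 3, against 147, 263 and 273 CPM in controls 1, 2 and 3. Its lowest disruptant value was thus several times its highest control value, and the ratio of means was 7.82. Its tags were concentrated: 38.2% fell on position 432088, the dominant position in each disruptant library and in the pooled controls. It was the most upstream of 5 members on that strand within 0.764 kb, which together summed to 1866 ± 552 CPM in disruptants and 242 ± 73.0 CPM in controls (SD, n = 3 each), so it carried nearly all of their level.

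The next in strength were already well used in the control. Member 2, on the plus strand of DF126468.1 at 134923 to 135379, had 793, 1036 and 1004 CPM in the disruptants and 183, 182 and 246 CPM in the controls. Member 3, on the minus strand of DF126449.1 at 801965 to 802084, had 531, 1162 and 740 CPM in the disruptants and 172, 152 and 254 CPM in the controls. Their ratios of 4.64 and 4.21 lie near the limit of the rule.

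Members 4 and 5 were low in the control only beside their disruptant levels. Their control means of 20.9 and 24.3 CPM were above the upper quartile of the members, 2.53 CPM. On the minus strand of DF126470.1 at 130585 to 130744, disruptants had 442, 1250 and 628 CPM and controls 7.24, 34.6 and 20.9 CPM, a ratio of 36.9. On the minus strand of DF126463.1 at 681623 to 681742, disruptants had 425, 957 and 523 CPM and controls 18.3, 28.2 and 26.5 CPM, a ratio of 26.1. In both, disruptant 2 was well above the other disruptant libraries.

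Scaffold DF126518.1 carried a strong member on each strand. It spans 49.1 kb of listed positions and holds 6 clusters. Its minus strand at 796 to 1013 had 497, 548 and 526 CPM in disruptants and 50.2, 42.3 and 43.4 CPM in controls, a ratio of 11.6. The plus strand at 28281 to 28346 had 180, 367 and 313 CPM in disruptants and 15.9, 6.77 and 9.33 CPM in controls, a ratio of 26.9. The disruptant libraries lay close together at the minus-strand site and apart at the plus-strand site.

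The other 5 of the 12 strongest had ratios of 4.57 to 45.8. They were on DF126488.1 (plus strand, 158982 to 159073, 493 ± 135 CPM in disruptants and 54.4 ± 22.2 CPM in controls), DF126470.1 (plus strand, 147402 to 147666, 360.0 ± 22.2 and 24.1 ± 12.5 CPM), DF126469.1 (plus strand, 432333 to 432362, 285 ± 116 and 62.3 ± 13.3 CPM), DF126462.1 (minus strand, 155655 to 155752, 257 ± 50.8 and 33.9 ± 6.59 CPM) and DF126449.1 (plus strand, 397303 to 397483, 241 ± 95.5 and 5.25 ± 2.92 CPM), each pair given as disruptant and then control mean with SD over 3 libraries.

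**Figure D2:**
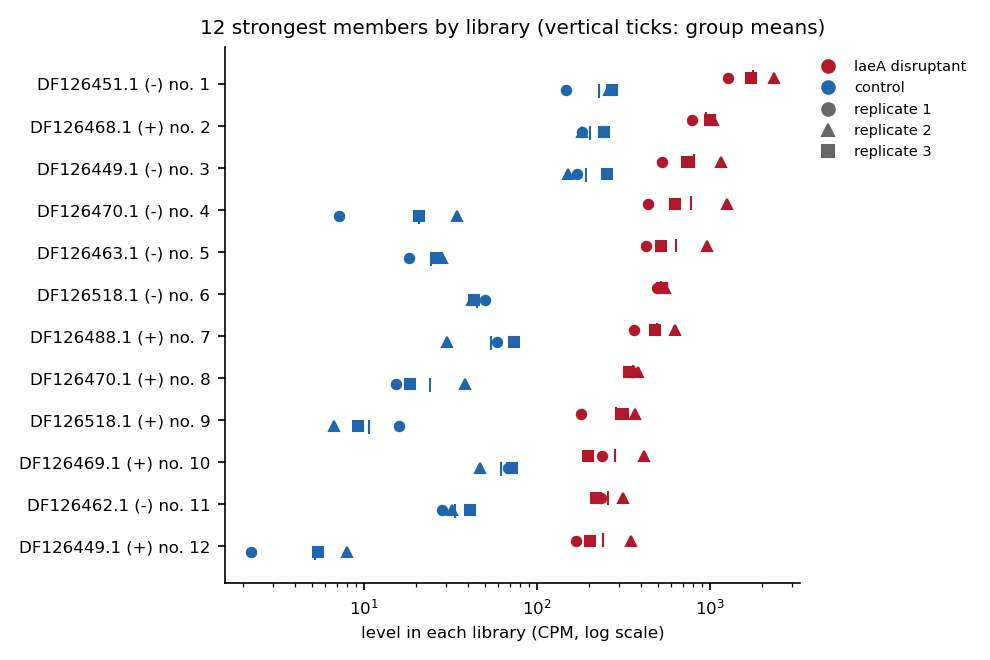
Level in CPM (log scale) of the 12 strongest members, numbered by disruptant mean, in each of the 3 laeA disruptant (red) and 3 control (blue) libraries; marker shapes give the replicate and vertical ticks the group means. In each of the 12 all red markers lie to the right of all blue ones, and in all 12 the triangle of disruptant 2 is the rightmost red marker.

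The members with the largest ratios were weaker than the strongest members named above, and most had few control tags. The largest ratio of all came from 1 library. On the minus strand of DF126532.1 at 20566 to 20594, disruptants 1, 2 and 3 held 4, 1379 and 4 tags and controls 2, 2 and 1 tags, so that disruptant 2 stood at 120.1 CPM and the other 5 libraries between 0.0777 and 0.358 CPM. Of its disruptant tags, 83.1% fell on position 20588. The site met the rule only because the low values of disruptants 1 and 3 still exceeded those of the controls, and it did not pass the filter of the fit.

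The plus strand of DF126526.1 at 9851 to 9911 had 232, 246 and 133 tags in the disruptants and 2, 1 and 0 tags in the controls. Pooled over the 3 libraries of each group and scaled by depth, its tags were in a ratio of 239 (95% interval 81.5 to 1163, exact, counting error only). On the minus strand of DF126449.1 at 401965 to 402001 the disruptants held 40, 91 and 56 tags and the controls 0 each. With the control set to the floor of 3 tags over the group, the ratio was 76.6. The exact 95% lower bound for the pooled ratio was 59.0 (counting error only). In these 2 sites all disruptant libraries contributed.

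The other large ratios belonged to sites of very different strength. The minus strand of DF126449.1 at 403887 to 404051 had 99.3, 265 and 114 CPM in disruptants and 1.19, 2.11 and 1.71 CPM in controls, a ratio of 95.7. The plus strand of DF126463.1 at 683928 to 684053 had 90.6, 130.5 and 77.0 CPM in disruptants and 1.45, 1.30 and 1.09 CPM in controls, a ratio of 77.6. The minus strand of DF126449.1 at 399694 to 399729 had 239, 317 and 169 tags in disruptants and 3, 3 and 2 tags in controls, a ratio of 109. Weak sites with few control tags were among them too: DF126470.1, plus strand, 132811 to 132845, with 73, 157 and 73 tags in disruptants and 1, 3 and 0 in controls (ratio 99.6), and DF126455.1, plus strand, 302824 to 302851, with 49, 102 and 32 tags in disruptants and 1, 0 and 1 in controls. At the second of these the ratio was 73.7 with the control set to the floor. Pooled and without the floor, its ratio was 107 (95% interval 29.3 to 894, exact, counting error only).

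Members often lay near one another. When members at most 10 kb apart on a scaffold, on either strand, were chained, 170 of the 285 (59.6%) fell into 43 groups and 115 stood alone. Clusters chosen by the mirrored rule, with control and disruptant exchanged, were chained to a like extent, 262 of 420 (62.4%). Of the 43 groups, 26 had members on both strands, 17 spanned less than 2 kb and 13 at least 5 kb. The 16 groups of 4 or more members held 111 members and 63.2% of the members' summed disruptant level. Members of these groups had a median ratio of 7.98, and members standing alone one of 4.97. The groups differed among themselves. The ratio of summed means was 22.1, 21.2 and 24.5 in the groups of 17, 12 and 11 members. In those of 9 and 8 members it was 5.39 and 4.66, near the median of members standing alone. The ratios chose the members, so this is a description. Clusters are not replicates, so here and below the shares and medians of members are set beside those of other clusters without a test.

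The largest group, on DF126470.1 from 129318 to 150457, had 17 members on both strands and summed to 1039, 2210 and 1261 CPM in the disruptants, against 36.0, 110.0 and 58.4 CPM in the controls. Within it, member 4 on the minus strand and the plus-strand site at 147402 to 147666 differed in how the disruptant libraries spread: the plus-strand site had 357, 383 and 339 CPM in disruptants and 15.5, 38.4 and 18.5 CPM in controls. All 4 clusters in that span that were not members had a ratio of at least 2. The group on DF126449.1 from 389746 to 404370 had 12 members, which summed to 1249 ± 515 CPM in disruptants and 58.8 ± 13.0 CPM in controls (SD, n = 3 each). Its strongest sites were the plus-strand site at 397303 to 397483, named above, and the minus-strand site at 402023 to 402158 with 125, 336 and 184 CPM in disruptants and 2.90, 4.78 and 3.50 CPM in controls. Of the 2 clusters in that span that were not members, neither had a ratio of at least 2.

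The most compact of the large groups was on DF126463.1, where 11 members lay within 4.44 kb, from 679676 to 684119, 5 on the plus and 6 on the minus strand. No cluster in that span was other than a member. The members summed to 715, 1466 and 796 CPM in the disruptants, against 31.3, 46.7 and 43.6 CPM in the controls, 24.5 times as much by the means. Next to member 5 the second site in strength was on the minus strand at 683115 to 683314, with 154, 314 and 145 CPM in disruptants and 7.24, 9.06 and 10.4 CPM in controls. The plus strand held the site at 683928 to 684053 described above.

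The group on DF126494.1, from 108611 to 113782, had 9 members and again no other cluster in its span. It differed in size and evenness: its sum was 182, 182 and 165 CPM in the disruptants and 36.5, 25.6 and 36.1 CPM in the controls, a ratio of 5.39. Its strongest member, on the minus strand at 113134 to 113204, had 117, 126 and 118 CPM in disruptants and 28.0, 17.4 and 26.8 CPM in controls. The plus strand at 113681 to 113782 had 22.9, 30.7 and 16.5 CPM in disruptants and 4.35, 3.97 and 5.13 CPM in controls. That scaffold spans 148 kb and held 60 clusters, of which 15.0% were members and none met the mirrored rule.

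On DF126484.1, 8 members lay between 562 and 9796, at an end of the scaffold, among 16 clusters that were not members. Of those 16, 13 had a disruptant mean at least 2 times the control mean, so the limit of the rule separates clusters that lay on the same side. The strongest member there, on the plus strand at 562 to 647, had 184, 323 and 202 CPM in disruptants and 46.1, 44.2 and 68.9 CPM in controls, and the next, at 9503 to 9555, had 47.9, 64.3 and 41.2 CPM in disruptants and 10.7, 7.57 and 8.94 CPM in controls. The group on DF126451.1, from 203087 to 217920, had 7 members, most of its level in 2 plus-strand sites at 216589 to 216689 (87.2, 101 and 83.2 CPM in disruptants, 14.2, 22.6 and 27.0 CPM in controls) and at 217773 to 217820 (71.4, 42.9 and 69.3 CPM in disruptants, 3.09, 2.17 and 3.96 CPM in controls). At the second of these, disruptant 2 was the lowest of the disruptant libraries. Of the 7 other clusters in that span, 4 had a ratio of at least 2.

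**Figure D3:**
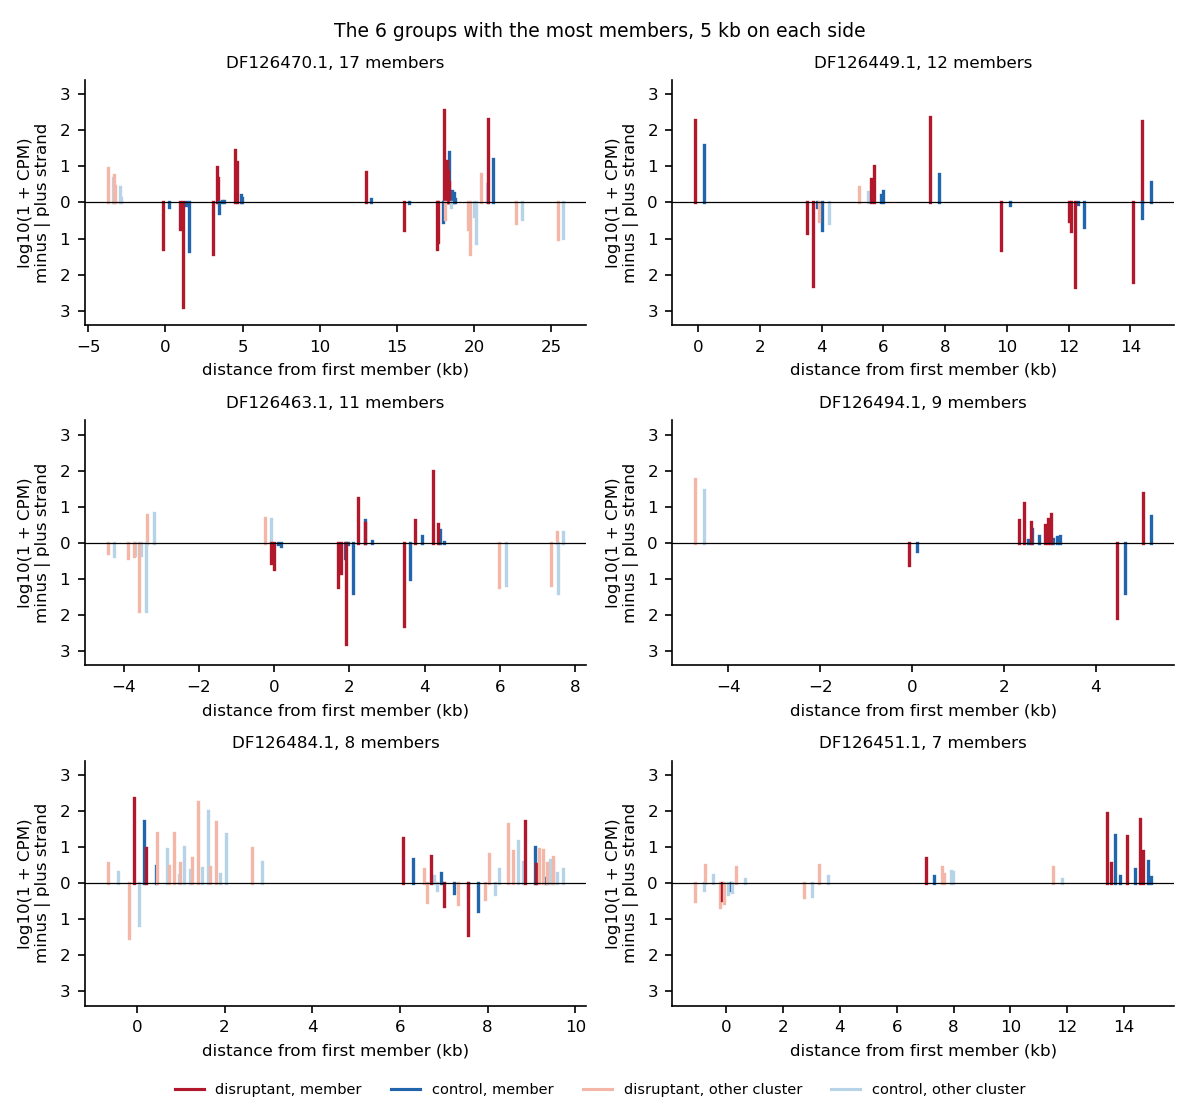
Mean levels along the 6 groups with the most members and 5 kb on each side, as log10(1 + CPM), with plus-strand clusters above and minus-strand clusters below the line; red is the disruptant, blue, drawn slightly to the right, the control, and pale bars are clusters that are not members. On DF126463.1 and DF126494.1 no pale bar lies between the first and last member, while on DF126484.1 members and other clusters alternate.

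Some short scaffolds were rich in members. DF126538.1 held 22 clusters, of which 7 (31.8%) were members. Its 6 other clusters within the span of the members summed to 733 CPM in disruptants and 285 CPM in controls, and 4 of them had a ratio of at least 2. On DF126488.1, with 207 kb, 10 of 72 clusters were members (13.9%) and 1 met the mirrored rule. Over all scaffolds with under 100 kb of listed positions, the share was 9.82% of the members, 1.90% of the clusters of the mirrored rule and 3.15% of all clusters.

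The place of a member on its scaffold was read from the outermost listed positions. Of the 285, 29 (10.2%) lay within 10 kb of such an end, on 14 scaffolds, against 3.81% of the clusters of the mirrored rule and 3.53% of all clusters. Restricted to scaffolds of at least 100 kb, the shares were 5.06% of members (13 of 257) and 2.12% of all clusters. Of these 13 members, 8 belong to the 1 group on DF126484.1 from 562 to 9796, so the higher share rests largely on 1 place. Clusters of 1 group share their place, so these shares rest on fewer independent places than members. A scaffold end is an end of the assembly and need not be the end of a chromosome.

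Within 500 bp, a smaller share of members had a neighbour than of the other clusters of at least 2 CPM in the disruptant. A same-strand neighbour was present for 155 members (54.4%) and for 65.4% of the 15885 others, and an opposite-strand neighbour for 69 members (24.2%) and for 37.3% of the others. No neighbour on either strand was present for 101 members (35.4%) and for 20.1% of the others. A same-strand neighbour that was itself a member was present for 94 members (33.0%) and for 0.554% of the others. On the opposite strand such a neighbour was present for 36 members (12.6%) and for 0.258% of the others. Members and others were not matched for level in these shares. A neighbour was counted only if it reached 1 CPM pooled over both strains. A start with few control tags reaches that minimum less easily. Whether this lowered the shares of members was not tested. Where neighbours were not members themselves, they were often higher in the disruptant too. The 123 same-strand neighbours had a median ratio of 2.03 (quartiles 1.32 and 2.99) and the 48 opposite-strand neighbours one of 2.12 (quartiles 1.36 and 2.74), against a median of 1.03 over all clusters. Only 32 of the 123 lay within 1.5-fold of equal levels, as did 62.3% of all clusters, and 1 met the mirrored rule.

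In 13 members a same-strand cluster at least as strong lay within 500 bp and stayed within 1.5-fold. These were looked for after the values were known. The strongest was on the plus strand of DF126462.1 at 628545 to 628698, with 37.4 ± 1.75 CPM in disruptants and 8.59 ± 0.52 CPM in controls, while the cluster 172 bp downstream, at 628870 to 629124, had 78.9 ± 25.1 CPM in disruptants and 56.6 ± 15.0 CPM in controls (SD, n = 3 each). On the minus strand of DF126447.1 the member at 1604474 to 1604495 had 18.9 ± 5.21 CPM in disruptants and 2.92 ± 0.25 CPM in controls, while the broader cluster 21 bp downstream of it, at 1604240 to 1604453, had 19.3 ± 5.68 CPM in disruptants and 24.4 ± 2.00 CPM in controls (SD, n = 3 each). In the disruptant these 2 clusters had about equal levels, and in the control the downstream one dominated. Their gap of 21 bp is just above the joining limit of 20 bp, so a slightly wider limit would make them 1 cluster. The steady neighbour was upstream in 8 of the 13 and downstream in 5.

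Member pairs on opposite strands within 500 bp numbered 22, and 18 of them were divergent, with the minus-strand start on the left of the plus-strand start. The pairs were formed by 36 members, some of them in more than 1 pair, so they are fewer separate places than pairs. In the divergent pairs the dominant positions lay a median of 442 bp apart. The weaker start had a median of 30.5% of the level of the stronger. These medians count a shared start more than 1 time, and no such values are given for other clusters. The most balanced of the strong ones was on DF126449.1, where the plus-strand site at 404171 to 404370 had 167, 207 and 163 CPM in disruptants and 2.04, 3.48 and 2.80 CPM in controls, and the minus-strand site at 403887 to 404051, described above, lay 399 bp away by dominant position. The other pairs with a strong start were lopsided. Beside member 5 on DF126463.1, the plus-strand site at 681952 to 682034 had 16.4 ± 3.96 CPM in disruptants and 3.37 ± 0.87 CPM in controls (SD, n = 3 each). Beside the minus-strand site at 683115 to 683314 the plus-strand partner had 3.28 ± 0.35 CPM in disruptants and 0.543 ± 0.016 CPM in controls (SD, n = 3 each). The plus-strand site of DF126470.1 at 147402 to 147666 had partners at 147079 to 147131 and 147156 to 147195, with 18.0 and 11.8 CPM in disruptants on average, far below it. On DF126494.1, the site at 113681 to 113782 had 19.4% of the disruptant level of the one at 113134 to 113204.

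Some members were weak companions of a strong one. In 28 members another member at least 10 times as strong lay within 2 kb upstream on the strand, and in 12 more it lay within 2 kb downstream. The 28 had a median ratio of 8.91, and the 245 members with no such strong companion one of 5.38. Whether these are starts of their own or ends within RNA from the stronger site cannot be told apart from tag positions. The number of separate promoters among the members may therefore be below 285.

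The form of a start site was not used by the rule and was read from the disruptant libraries, for the 241 members with at least 100 disruptant tags. The middle 80% of the tags within 100 bp of the dominant position spanned a median of 51 bp (quartiles 24 and 89) in members and 57 bp (quartiles 33 and 91) in 13971 other clusters. By level the medians were 28 against 49 bp between 20 and 100 CPM and 25 against 42 bp at 100 CPM or more, and 69 against 75 bp between 2 and 5 CPM. Counted inside the cluster limits, the medians were 23 and 35 bp over all levels. They were 20 and 26 bp between 2 and 5 CPM and 22.5 and 34 bp between 5 and 20 CPM. Between 20 and 100 CPM they were 24 and 43 bp, and at 100 CPM or more 40 and 42 bp. The difference at 100 CPM or more thus depends on the measure. Positions entered a cluster by their level pooled over both strains, and members have few control tags, so their weaker flanking positions reach that minimum less easily. Of the tags within 100 bp, the dominant position took a median of 23.6% in members and 20.6% in the others, and 23.7% and 23.3% at 100 CPM or more. Inside the cluster limits these shares were 31.3% and 25.1% over all levels.

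**Figure D4:**
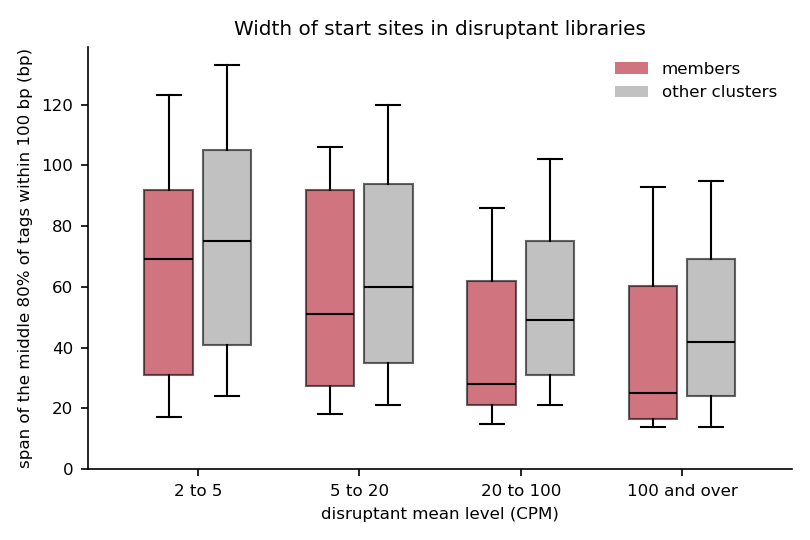
Span in bp of the middle 80% of disruptant tags within 100 bp of the dominant position, for members (red) and other clusters (grey) in 4 ranges of the disruptant mean; boxes give the median and quartiles and whiskers the 10% and 90% points. The median of members is below that of the other clusters in each range, by the least (69 against 75 bp) between 2 and 5 CPM.

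Among single sites the form varied widely. In 5 members the middle 80% of the cluster's tags fell on 1 position. These were on DF126449.1 at 415379 (minus strand, 100% of disruptant tags on the dominant position) and at 393431 to 393437 (minus strand, 94.9%), DF126538.1 at 11988 to 11996 (plus strand, 98.0%), DF126492.1 at 101111 to 101118 (plus strand, 93.1%) and DF126470.1 at 144939 to 144941 (minus strand, 85.8%). The widest lay on DF126499.1 (minus strand, 94770 to 95003), DF126470.1 (plus strand, 147402 to 147666) and DF126447.1 (plus strand, 208159 to 208402), with the middle 80% of cluster tags over 177, 149 and 112 bp. The site at 415379 had 165, 35 and 94 tags in disruptants and 11, 11 and 8 tags in controls, with disruptant 2 the lowest of the disruptants. The widest site, on DF126499.1, had 18.1, 18.7 and 20.9 CPM in disruptants and 1.05, 1.43 and 2.10 CPM in controls.

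The dominant start was the same position in all 3 disruptant libraries in 149 of the 241 members (61.8%), and in 58.3% of the other clusters. For the 167 of these members that also had at least 30 control tags, the dominant position in the controls was that of the disruptants in 121 (72.5%) and within 5 bp of it in 133 (79.6%). In other clusters with the same minimum numbers of tags these shares were higher, 79.3% and 86.1%. The numbers of tags were not matched. By the rule members have few control tags for their disruptant level, so their dominant control position is less surely known. In 15 of the 167 the dominant positions were more than 20 bp apart.

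The 3 disruptant libraries did not contribute evenly. Disruptant 2 was the highest in 211 of the 285 members (74.0%), against 48.3% of the other clusters of at least 2 CPM, and disruptant 1 was the lowest in 177. This held in each range of level, from 69.7% to 89.3% of members. In the median member disruptant 2 was 1.49 times the mean of disruptants 1 and 3, and in 58 members at least 2 times. The coefficient of variation among disruptant libraries had a median of 30.5% in members and 22.0% in the others. Taken alone against the control mean, disruptants 1, 2 and 3 had median ratios of 4.97, 7.32 and 5.36. The sites were chosen by their disruptant mean, which lets in sites where 1 library is high. Without disruptant 2 the rule took 222 clusters, of which 207 were members.

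**Figure D5:**
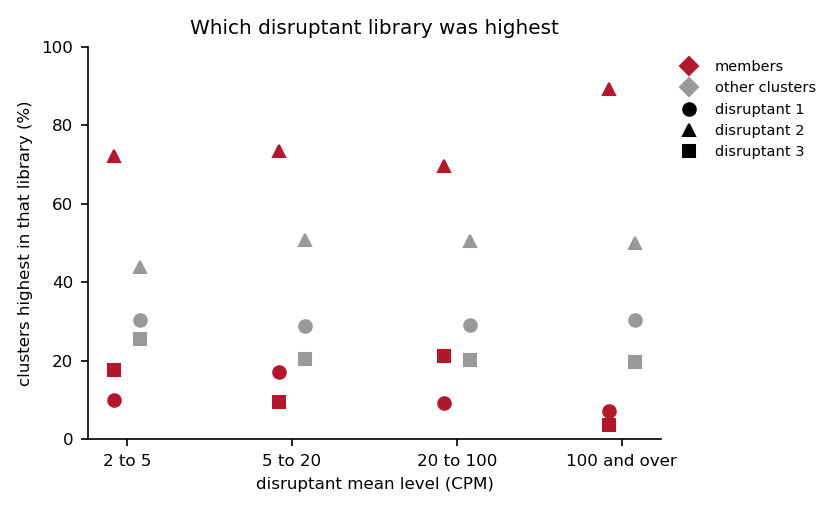
Share of clusters (%) in which each of the 3 disruptant libraries had the highest CPM, for members (red) and other clusters (grey) in 4 ranges of the disruptant mean. Disruptant 2 (triangles) was highest in 69.7% to 89.3% of members and in 44.0% to 50.7% of the other clusters.

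The members with the largest spread rested on 1 library. After DF126532.1, described above, came DF126453.1 (minus strand, 171109 to 171128), with 24, 156 and 12 tags in disruptants and 6, 12 and 9 tags in controls, and DF126454.1 (minus strand, 950985 to 950997), with 88, 4 and 10 tags in disruptants and 3, 2 and 0 tags in controls. The fourth was on DF126457.1 (plus strand, 739659 to 739715), with 15, 71 and 19 tags in disruptants and 5, 12 and 11 tags in controls. Disruptant 1 was the high library in DF126454.1 and disruptant 2 in the others. DF126532.1 and DF126454.1 did not pass the filter of the fit, and DF126453.1 and DF126457.1 were not called higher (edgeR quasi-likelihood adjusted p = 0.0835 and 0.105). DESeq2 called higher each of the 284 members it tested, so these outcomes are those of the edgeR fit alone.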

How the data were processed

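CAGE tags were counted in 3 laeA disruptant and 3 control libraries, grouped by their titles. The authors deposited, per the file headers, a table of tag counts at each start position and library, which is unscaled. FastQC, BWA and bedtools are named in the submitters' processing notes; versions, genome build and the treatment of tags with several places are not given in the sources used here. No genome of these scaffolds was used here. Those sources name no molecular identifiers.

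Positions on DF scaffolds other than DF126582.1 were scaled to CPM by their column totals. Neighbouring positions of at least 0.1 pooled CPM and the same strand formed a cluster if no gap exceeded 20 bp. Clusters needed 1 pooled CPM and hold 91.5% of the tags used. Cluster counts were fitted with edgeR 4.0.16 in R 4.3.3 (TMM, filterByExpr, quasi-likelihood F test, Benjamini-Hochberg). DESeq2 1.42.0 was an alternative. The fit and the clustering were tested on simulated data. No 2 libraries of a group were copies: the chi-square per degree of freedom was 12.8 to 55.0.

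Members, lists and measures were chosen with earlier results of these data known. Sites named in the text are the 12 strongest members, the 8 with the largest ratio, the 2 strongest of each of the 6 largest groups, those nearest the limit of the rule, the 4 with the largest spread, the 6 strongest with an opposite-strand member, the 3 narrowest, where 5 members tied and all are named, and the 3 widest. Others were named after their values were seen.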

Additional observations from a re-analysis of the deposited data

Results flagged for a closer look

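Clusters under 1 pooled CPM stood outside the rule, and 3 of these 50758 met all its other conditions, with tags in every disruptant library and none in the controls. On the plus strand of DF126448.1 at 1130132 to 1130149, disruptants held 28, 19 and 33 tags (mean 2.16 CPM) and controls 0 each. On the plus strand of DF126449.1 at 398007 to 398008, inside the group of 12 members, disruptants held 36, 26 and 15 tags (mean 2.01 CPM) and controls 0 each. On the plus strand of DF126526.1 at 9789 to 9809, just upstream of the member at 9851 to 9911, disruptants held 28, 29 and 18 tags (mean 2.00 CPM) and controls 0 each. Each is listed because it shows signal in data the comparison did not use. A disruptant mean of at least 2 CPM with under 1 pooled CPM leaves room for few control tags, so their near absence follows from these limits. On the scaffolds and contigs left out, 0 of 160 clusters met the rule.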

How the results depend on the processing

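The number of members, 285, was 155 with a disruptant minimum of 5 CPM, 546 with a control limit of 1/3 and 91 with one of 1/8, each by construction. With other cluster settings, TMM library sizes or all DF scaffolds it was 257 to 327, and 222 to 348 with a library left out. Clusters called higher, 843, were 428 with the replicate block and 277 at a threshold of 0.01. They numbered 320 to 958 with a library left out: 396 without disruptant 2, 320 without disruptant 3, 344 without control 1 and 393 without control 2; the cause was not tested. DESeq2 called 1168. Members called, 275, ranged from 189 (adjusted p under 0.01) to 284, with 246 under the replicate block and 206 to 277 otherwise. Members in groups, 170, were 155 and 178 with gaps of 5 and 20 kb, and 136 to 198 with a library left out. Of all calls 48.5% were higher; this was 54.7% with library size alone, 43.4% with the replicate block and 38.0% (without control 3) to 48.6% with a library left out. The replicate numbers did not pair the libraries: deviations of same-numbered libraries correlated at 0.45, -0.42 and -0.09. At the depth here 3 tags correspond to up to 0.268 CPM, so ratios of weak members rest on few control tags.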
